A study of Mus musculus with 9 samples.

Results

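Matricellular proteins are secreted proteins that sit in the extracellular matrix without building its fibres. They bind integrins, syndecans, growth factors and collagens, and so change how cells read the matrix around them. In the adult heart most of them are made at low levels, and they are known from the wound and scar response, where fibroblasts, macrophages and stressed cardiomyocytes produce them. The 10 genes described here were chosen by name, with earlier results of these data known: the CCN family members Ccn1, Ccn2 and Ccn5, the thrombospondins Thbs1, Thbs2 and Thbs4, and Postn, Spp1, Tnc and Sparc. They are 10 of the 41710 gene names in the deposited read table, and all 10 were among the 15504 genes with enough reads to be tested.

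The cardiac transcriptome was sequenced in whole hearts of 9 male mice, 3 per group, each 8 months old and on an FVB/N background. Tg-RKIP mice carry a transgene for RKIP (Raf kinase inhibitor protein, gene Pebp1) that the alpha-myosin heavy chain promoter drives in the myocardium, Tg-GRK2 mice are labelled as carrying a transgene for GRK2 (G-protein-coupled receptor kinase 2), and the controls are non-transgenic FVB/N mice, called FVB here. The labels describe symptoms of heart failure in the Tg-RKIP mice. The promoter of the GRK2 transgene and the number of founder lines are not given in the sources used here.

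The targeted genes were measured first. Pebp1 reached 16371, 15967 and 16257 TPM (a transcript level corrected for transcript length and library size) in the 3 Tg-RKIP hearts, against 324, 329.8 and 321 TPM in FVB hearts. Grk2 stood at 27.9, 25.9 and 27.4 TPM in FVB hearts, and the libraries labelled Tg-GRK2 overlapped them at 26.4, 24.9 and 30.5 TPM (log2 fold change 0.05, adjusted p = 0.354, edgeR quasi-likelihood test). For this reason the second group is called the libraries labelled Tg-GRK2, and no direction found in it can be tied to a higher Grk2 level. Libraries held 25458108 to 33447654 reads, and the share of mitochondrially encoded transcripts was 11.7% ± 0.156 (SD, n = 3) for Tg-RKIP, 22.6% ± 0.299 for the Tg-GRK2 label and 23.1% ± 0.158 for FVB. Genes were tested on counts normalised by TMM, which sets the bulk of genes to equal levels between libraries, and every adjusted p is a Benjamini-Hochberg value across the 15504 genes. Pairs of libraries within a group varied 1.26 to 1.48 times as much as counting noise alone, by the median over genes. The coefficient of variation beyond counting noise was 2.86%. SDs and adjusted p-values rest on this small spread, and whether other hearts vary more was not tested. With TMM the median log2 fold change of all genes between Tg-RKIP and FVB hearts was 0.01, and it was 0.38 when counts were scaled to library size only and 0.43 on log2(TPM + 0.1), so TPM folds are larger than TMM folds in this comparison.

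The sequences just upstream of 3 of these genes are shown because each holds a short motif of a factor family known from CCN or bone genes. RefSeq promoter entries (GRCm38.p6) matched 7 of the 10 genes, with 10 entries in all. Ccn2, Ccn5 and Thbs1 are named only. Each line gives the 250 bases before the start, 5′ to 3′ on the gene's strand, with capitals for GGAATG, the TEAD core (read as CATTCC on the other strand), in Ccn1 (chr3:145649986-145650235, minus strand) and Thbs4 (chr13:92794819-92795068, minus strand), and for AACCACA, the RUNX core, in Spp1 (chr5:104434861-104435110, plus strand).
Ccn1: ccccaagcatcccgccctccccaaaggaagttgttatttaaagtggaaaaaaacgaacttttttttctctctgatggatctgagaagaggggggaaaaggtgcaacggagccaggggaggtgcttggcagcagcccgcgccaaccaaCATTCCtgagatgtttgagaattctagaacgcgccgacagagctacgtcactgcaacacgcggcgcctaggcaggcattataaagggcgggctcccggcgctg
Thbs4: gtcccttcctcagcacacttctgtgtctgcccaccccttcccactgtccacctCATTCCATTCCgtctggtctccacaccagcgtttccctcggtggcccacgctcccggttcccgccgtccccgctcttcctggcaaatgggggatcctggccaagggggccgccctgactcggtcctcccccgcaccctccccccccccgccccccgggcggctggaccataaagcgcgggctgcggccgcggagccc
Spp1: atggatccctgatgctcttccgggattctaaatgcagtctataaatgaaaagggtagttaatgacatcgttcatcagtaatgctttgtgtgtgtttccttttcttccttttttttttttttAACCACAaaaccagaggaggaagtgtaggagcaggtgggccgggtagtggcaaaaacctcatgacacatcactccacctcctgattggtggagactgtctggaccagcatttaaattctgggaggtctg
Both strands were searched in the 250 bases upstream of every entry. The TEAD core was found in 2 of the 10 entries, at 103 bases upstream in Ccn1 and as an overlapping pair at 197 and 192 bases in Thbs4, and in 12.6% of all 32851 promoter entries. The RUNX core was found in 1 of the 10, at 129 bases upstream in Spp1, and in 4.40% of all entries. TATAAA, the core of the TATA box, was found in 6 of the 10 entries of the 7 genes and in 12.4% of all entries. It began 25 bases upstream in Ccn1, 26 in one of the Postn entries, 211 in Spp1, 126 and 205 in the overlapping Tnc entries and 126 on the other strand in Thbs2. The 2 Tnc matches are the same site counted in both entries, and 5 of the 7 genes had a match. TGANTCA, the AP-1 site, occurred in 0 of the 10 and in 6.75% of all entries. These motifs were picked after the sequences had been seen, and a match is a run of letters, not evidence that a factor binds there.

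In Tg-RKIP hearts all 10 genes were higher than in FVB hearts, and so they were against the libraries labelled Tg-GRK2. Against FVB, 36.8% of all tested genes were higher and 37.1% lower, 10.2% were higher by at least 1 on the log2 scale and 2.71% by at least 2. Of the 10 members 9 passed the first size and 6 the second. The shares give scale only and are no test of the members, which were chosen with earlier results of these data known. The median log2 fold change of the members was 2.20. The summed level of the 10 genes was 2360 to 2385 TPM in Tg-RKIP hearts against 480.5 to 486 TPM in FVB hearts, and 526 to 539 TPM under the Tg-GRK2 label. TMM-normalised counts of the 3 Tg-RKIP hearts lay above those of the 3 FVB hearts for 10 of 10 members, as they did for 38% of all tested genes. Single genes were also compared on TPM with an exact two-sided permutation test, whose smallest possible p with 3 against 3 hearts is 0.1, the value each member reached. Because whole hearts were sequenced, more cells of a producing type and more RNA per cell cannot be told apart.

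**Figure D1:**
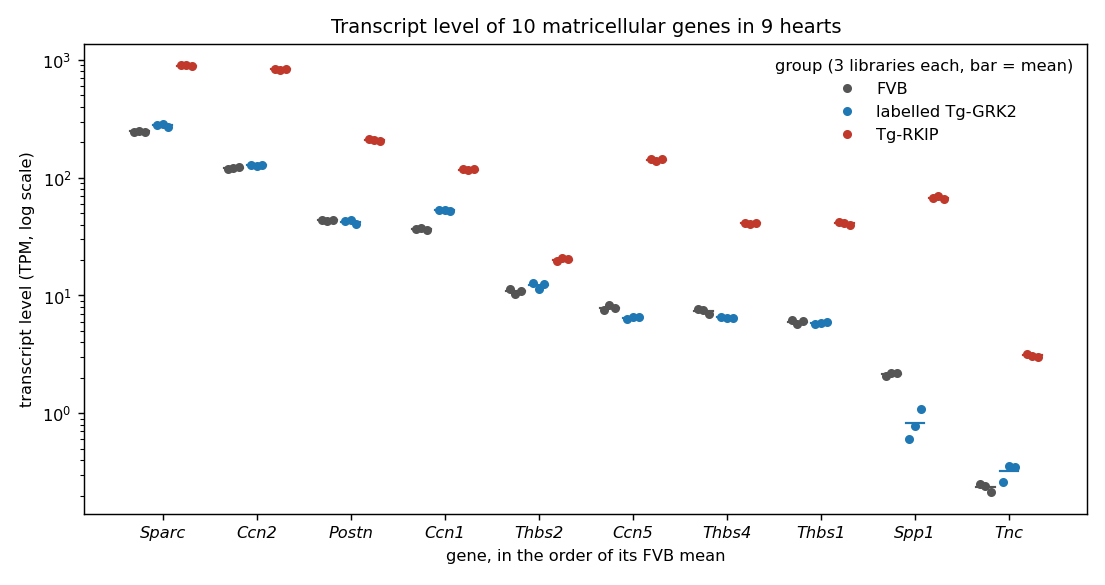
Transcript level (TPM, log scale) of each of the 10 genes in each of the 9 hearts, with 3 points per group and a bar at the group mean. The Tg-RKIP points lie above both other groups for every gene, with the widest gap for Spp1 and the narrowest for Thbs2. The libraries labelled Tg-GRK2 lie near FVB except for Ccn1, Tnc and Spp1.

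The CCN proteins share a modular build and are induced by growth factors and mechanical load. Ccn2, or connective tissue growth factor, promotes matrix production by fibroblasts and lies at chr10:24471340-24474581 (positions of genes are as deposited, GRCm39 per the submitters' processing notes). It stood at 836, 822 and 841 TPM in Tg-RKIP hearts and at 119, 121 and 123 TPM in FVB hearts. The Tg-RKIP values were 6.88-fold ± 0.0835 (SD, n = 3) the FVB mean, with a log2 fold change of 2.36 (SE 0.020, adjusted p = 2.31e-27, edgeR). Ccn2 thus moved from 25.1% of the summed TPM of the 10 genes in FVB to 35.2% in Tg-RKIP hearts, close behind Sparc. Ccn5 (chr2:163662781-163675066), which lacks the C-terminal domain of the other CCN proteins and is known to oppose several effects of Ccn2, showed the second largest change of the 10 genes. Its level was 145, 139 and 144 TPM in Tg-RKIP hearts against 7.49, 8.32 and 7.84 TPM in FVB hearts, an 18.1-fold ± 0.419 difference (log2 fold change 3.76, SE 0.041, adjusted p = 1.75e-25, edgeR). In the order of levels it went from rank 6 of 10 in FVB, where its values overlapped those of Thbs4, to rank 4 in Tg-RKIP hearts, where it overlapped no neighbour. Ccn1 (chr3:145352731-145355736), an integrin ligand induced early in wound repair, changed least among the 3 CCN genes. It measured 118, 116 and 118 TPM in Tg-RKIP hearts and 36.5, 37.2 and 36.0 TPM in FVB hearts (log2 fold change 1.26, SE 0.026, adjusted p = 7.24e-21, edgeR). Ccn1, with 1 annotated transcript, is the only one of the 10 without a choice of transcripts in the deposited table.

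The thrombospondins are large multimeric glycoproteins. Thbs1 (chr2:117942357-117957614), which can release active TGF-beta from its latent complex and binds CD36 and CD47, stood at 41.7, 41.3 and 39.6 TPM in Tg-RKIP hearts and at 6.19, 5.76 and 6.01 TPM in FVB hearts. The fold was 6.83 ± 0.185 (log2 fold change 2.36, SE 0.033, adjusted p = 1.15e-23, edgeR). Thbs4 (chr13:92888098-92931326) is known from tendon and from the stressed heart, where it acts with ATF6 inside the endoplasmic reticulum. Its 3 Tg-RKIP values of 41.0, 40.7 and 41.2 TPM overlapped those of Thbs1, and its FVB values were 7.75, 7.59 and 6.92 TPM. The fold was 5.52 ± 0.0370 (log2 fold change 2.04, SE 0.040, adjusted p = 2.69e-21, edgeR). Thbs2 (chr17:14885762-14914497), an inhibitor of blood vessel growth that also shapes collagen fibrils, was the highest of the 3 thrombospondins in FVB hearts and the lowest in Tg-RKIP hearts. It rose from 11.4, 10.3 and 11.0 TPM to 19.6, 20.6 and 20.3 TPM (log2 fold change 0.47, SE 0.043, adjusted p = 2.15e-09, edgeR). Thbs2 was the one member whose change did not pass a test against a fold of 1.5.

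Spp1 encodes osteopontin, an integrin-binding phosphoprotein of bone that macrophages and injured hearts also make (chr5:104582984-104588916). It was 67.4, 69.7 and 66.5 TPM in Tg-RKIP hearts, 2.07, 2.19 and 2.21 TPM in FVB hearts and 0.599, 0.778 and 1.09 TPM under the Tg-GRK2 label. The 3 groups were separate, and the fold of Tg-RKIP over FVB was 31.5 ± 0.768 (log2 fold change 4.56, SE 0.073, adjusted p = 9.51e-23, edgeR), which ranked 62 of 15504 by size. Tnc encodes tenascin-C (chr4:63878022-63965252), an anti-adhesive protein that reappears at sites of injury. With 3.20, 3.08 and 3.03 TPM in Tg-RKIP hearts and 0.250, 0.241 and 0.213 TPM in FVB hearts it was the least abundant member in every group. Its fold was 13.2 ± 0.371 (log2 fold change 3.29, SE 0.12, adjusted p = 1.66e-16, edgeR), resting on 27 to 34 reads per FVB heart and 344 to 453 per Tg-RKIP heart. The size depended on the scale at this level, from 1.73 on log2(TPM + 1) to 3.66 in other settings, all higher.

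Sparc (chr11:55285326-55314009), a collagen-binding glycoprotein needed for fibril assembly, had the highest level of the 10 genes in each group. It was 900.0, 898 and 881 TPM in Tg-RKIP hearts and 246, 251 and 244 TPM in FVB hearts (log2 fold change 1.44, SE 0.018, adjusted p = 1.27e-24, edgeR). Of the summed TPM of the 10 genes it made up 51.1% in FVB hearts and 37.7% in Tg-RKIP hearts. Postn (chr3:54268530-54298458) encodes periostin, a product of activated fibroblasts that supports collagen cross-linking. It was 214, 209.8 and 205 TPM in Tg-RKIP hearts and 43.9, 42.9 and 43.9 TPM in FVB hearts (log2 fold change 1.67, SE 0.026, adjusted p = 7.51e-23, edgeR). Postn held rank 3 among the 10 in both of these groups.

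**Figure D2:**
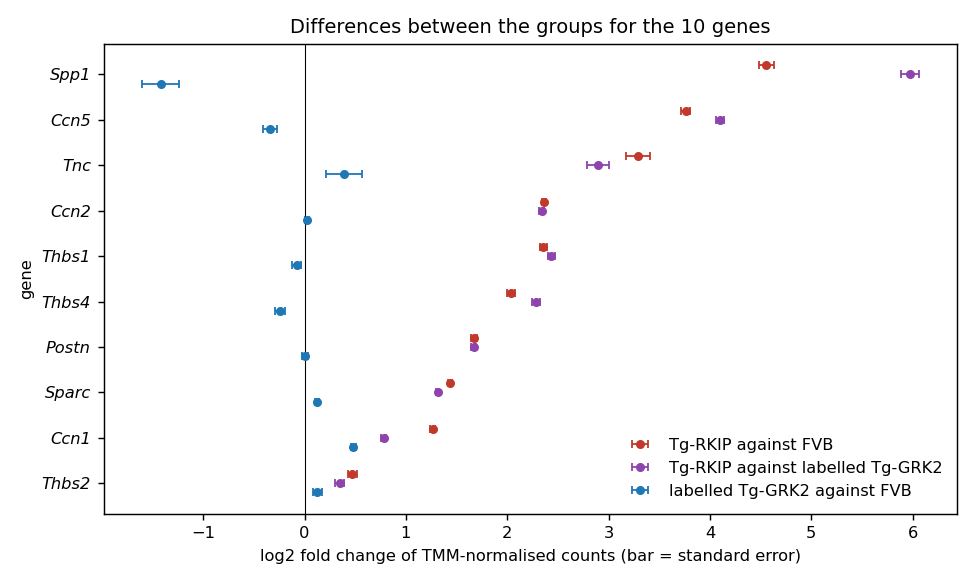
Log2 fold change of TMM-normalised counts with its standard error (bars) for each gene in the 3 comparisons. Against FVB the Tg-RKIP values run from 0.47 for Thbs2 to 4.56 for Spp1, while in the libraries labelled Tg-GRK2 they run from -1.42 for Spp1 to 0.48 for Ccn1.

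The libraries labelled Tg-GRK2 differed from FVB in 5 of the 10 genes, with Ccn1 and Sparc higher and Spp1, Ccn5 and Thbs4 lower. In this comparison 12.2% of all tested genes were higher and 12.2% lower, and the members' median log2 fold change was 0.014. Ccn1 was 53.1, 52.9 and 52.6 TPM in these libraries, all above the 3 FVB values given above (log2 fold change 0.48, SE 0.028, adjusted p = 2.12e-11, edgeR). Sparc was 279.7, 284 and 272 TPM, also above FVB (log2 fold change 0.12, adjusted p = 1.96e-05, edgeR). Spp1 was below FVB in all 3 libraries (log2 fold change -1.42, SE 0.18, adjusted p = 4.56e-06, edgeR), on 16 to 33 reads per library against 53 to 64. Ccn5 at 6.26, 6.51 and 6.51 TPM and Thbs4 at 6.62, 6.49 and 6.40 TPM were below FVB without overlap (log2 fold changes -0.34 and -0.24, adjusted p = 0.000646 and 0.00160, edgeR). None of these 5 passed a test against a fold of 1.5 except Spp1. Thbs2 missed the threshold (log2 fold change 0.12, adjusted p = 0.0505, edgeR) and passed it without replicate 2 of the libraries labelled Tg-GRK2 (0.18, adjusted p = 0.00533) or without FVB replicate 1 (0.15, adjusted p = 0.0334). Tnc had a log2 fold change of 0.39 (adjusted p = 0.135), Ccn2 of 0.03 (0.403), Postn of 0.00 (0.977) and Thbs1 of -0.08 (0.225). Normalised counts did not overlap for 6 members, 3 higher and 3 lower, against 18.5% and 18.6% of all tested genes.

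Between Tg-RKIP hearts and the libraries labelled Tg-GRK2 all 10 members were higher in Tg-RKIP, beside 37.9% of all tested genes higher and 36.6% lower, and their median log2 fold change was 2.31. The value for Spp1 was 5.97 (SE 0.087, adjusted p = 1.96e-23, edgeR) and that for Ccn5 was 4.10. Ccn1, which was higher than FVB in Tg-RKIP hearts and in the libraries with the Tg-GRK2 label, differed by 0.78 (adjusted p = 1.34e-17, edgeR) and Thbs2 by 0.35. The 8 members that reached 1 on the log2 scale stand beside 9.89% of all genes, and the 6 that reached 2 beside 2.32%. Normalised counts did not overlap for all 10, against 39.1% of all tested genes in this direction. This comparison shares its Tg-RKIP hearts with the one against FVB, so the values are not an independent measurement of them.

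Postn was the member with several transcripts in clear use, as periostin messages are known to differ in the exons kept near the 3′ end of the coding region. A 21-exon transcript (ENSMUST00000117373) took 17.8% ± 7.60 of the Postn reads in FVB hearts and 18.4% ± 6.89 in the libraries labelled Tg-GRK2. In Tg-RKIP hearts it had 0 of 8251, 0 of 10492 and 0 of 7690 Postn reads, which allows a share of up to 0.0364%, 0.0286% and 0.0390%. A 22-exon transcript (ENSMUST00000107985) took 50.4% ± 1.56 in Tg-RKIP and 38.4% ± 7.13 in FVB hearts, and the 5-exon ENSMUST00000143258 took 9.99% ± 0.396 and 5.77% ± 1.17. These 3 shares did not overlap between Tg-RKIP and FVB hearts (exact permutation p = 0.1 each, the smallest possible), while the other 22-exon transcript, ENSMUST00000073012, overlapped at 39.2% ± 1.22 and 36.7% ± 2.43. How reads that fit several transcripts were divided is not given in the sources used here, the limits cover counting error only, and the split of Spp1 reads between a pair of near-identical transcripts moved from 0% to 100% within the 3 FVB hearts, so transcript shares from these single 50-base reads are less firm than gene totals.

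**Figure D3:**
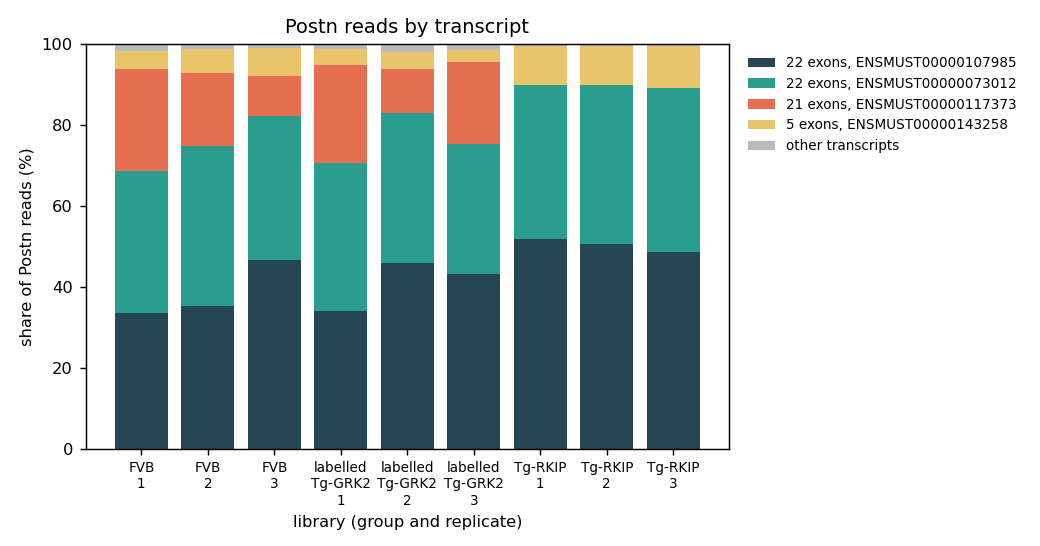
Share of the Postn reads (%) assigned to each transcript in each of the 9 libraries, as stacked bars that sum to 100%. The 21-exon transcript is present in all FVB libraries and all libraries labelled Tg-GRK2 and has no read in the 3 Tg-RKIP libraries.

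The genes whose levels ran most like those of the members over the 9 libraries were found by the root mean square distance between centred log2 levels. Nearest to Ccn1 were the collagen VI genes Col6a2 (0.029) and Col6a1 (0.052), whose log2 fold changes against FVB were 1.29 and 1.21 in Tg-RKIP hearts and 0.52 and 0.55 under the Tg-GRK2 label. Nearest to Sparc were Nbl1 (0.036) and Aebp1 (0.037), to Postn were Igfbp3 (0.036) and Cyp1b1 (0.041), and to Ccn2 were Itgbl1 (0.041) and Emb (0.055). Thbs1 ran closest to Smoc1 (0.070) and Fmod (0.070), and Thbs2 to Prkab2 (0.044) and Pla1a (0.046). Tnc had Lgals3 (0.11) and Cfd (0.12) as its nearest genes, and Ccn5 had Ecrg4 (0.19) and Comp (0.22). Spp1 had no close neighbour, since its nearest genes, Edn3 and Pebp1, lay 0.53 and 0.64 away. Among the members themselves Ccn2 and Thbs1 were closest (0.064), followed by Thbs1 and Thbs4 (0.14). These distances describe 9 libraries in which the step from FVB to Tg-RKIP is most of the variation.

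Other genes of the matricellular families, their receptors and the systems that regulate them were counted in Tg-RKIP against FVB hearts. Of 17 tested other matricellular genes 10 were higher and 3 lower (median log2 fold change 0.82). At the upper end were Comp (thrombospondin 5) at 4.28 and Tnn (tenascin N) at 3.00. At the lower end were Ccn3 at -0.63 and Tnr (tenascin R) at -1.55. Tnn rested on 15 to 34 reads per Tg-RKIP heart and 0 to 4 per FVB heart. Tnr had 1 to 5 reads per Tg-RKIP heart and 3 to 12 per FVB heart, which overlapped. Of 20 integrins and other receptors 13 were higher and 5 lower (median 0.29), from Sdc4 (syndecan-4) at 1.54 and Itgb5, a subunit of a periostin and osteopontin receptor, at 239 TPM ± 6.07 against 60.2 TPM ± 1.10 in FVB, to Cacna2d1, a thrombospondin receptor, at -0.69 and Cd36 at -0.91. The median of the receptors lay below that of the 10 members, which were chosen with earlier results of these data known. In the TGF-beta system 10 of 13 were higher and 3 lower (median 0.93), with Ltbp2, a latent TGF-beta binding protein, at 3.19 and the ligand Tgfb3 at 1.63, and Ltbp1 at -0.31 and Tgfbr3 at -0.22. Of 19 YAP/TAZ target genes, a family to which Ccn1 and Ccn2 belong, 12 were higher and 4 lower (median 0.33), with Fjx1 at 1.71, Ankrd1, a stress gene of cardiomyocytes, at 1.12, Dock5 at -0.41 and Arhgef17 at -0.54. Of 11 genes of ATF6 and its chaperone targets 8 were higher and 3 lower (median 0.09), with Sdf2l1 at 0.97, Creld2 at 0.63, Atf6 itself at -0.56 and Herpud1 at -0.61. Scaled to library size only, the higher and lower counts became 14 and 1 for the other matricellular genes, 16 and 2 for the receptors, 13 and 0 for the TGF-beta system, where Ltbp1 and Tgfbr3 turned higher, 16 and 1 for the YAP/TAZ targets and 9 and 2 for the ATF6 list, and all 10 members stayed higher.

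**Figure D4:**
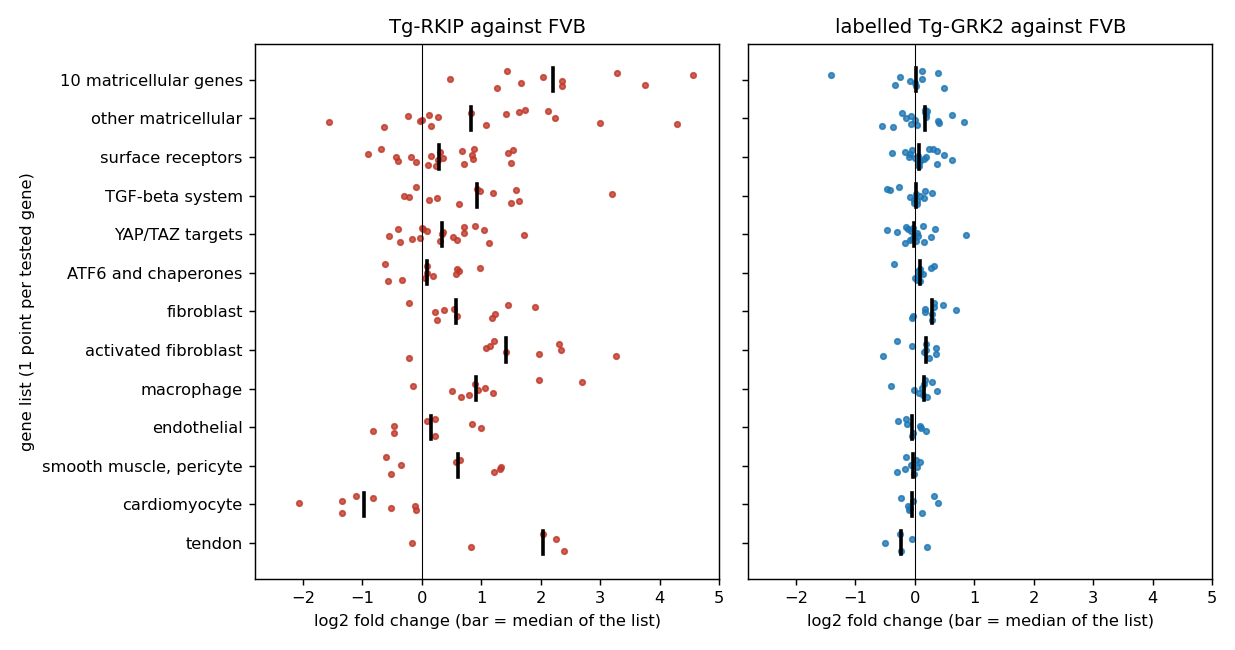
Log2 fold change of every tested gene (points) and the list median (bars) for the 10 genes, related gene lists and cell type markers, in Tg-RKIP against FVB (left) and in the libraries labelled Tg-GRK2 against FVB (right). The members' median of 2.20 on the left lies above those of the fibroblast (0.57), activated fibroblast (1.41) and macrophage (0.92) lists. Members and lists were chosen with earlier results of these data known, so this order is no test. The tendon list includes the member Thbs4, whose own value is the median of that list (2.04). Cardiomyocyte markers lie below 0 on the left with TMM, and on the right 3 were higher and 5 lower. The cartilage, mineralised tissue and airway lists, whose medians lie above that of the members, are not plotted.

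Markers of cell types known to make these proteins differed as well, and their part in the members' result was not tested. Of 10 fibroblast markers 9 were higher and 1 lower, from Mfap5 at 1.90 to Ddr2 at -0.22, and their summed level was 3831 to 3848 TPM in Tg-RKIP and 1842 to 1864 TPM in FVB hearts. The fold changes of 6 members lay above that of the highest fibroblast marker. For the highest activated fibroblast marker and the highest macrophage marker the number was 3 each. Among these, Tnc at 3.29 (SE 0.12) exceeded the activated fibroblast marker Cthrc1 at 3.26 (SE 0.19) by less than either SE. In FVB hearts Tnc had 27 to 34 reads and Cthrc1 11 to 18. Every member lay below the highest mineralised tissue (9.68), cartilage (10.56) and airway (12.06) markers. Of 9 activated fibroblast markers 8 were higher, led by Cthrc1 (3.26) and Lox (2.34), a collagen cross-linking enzyme. The other, Fap, was not past the threshold (-0.22, adjusted p = 0.0861, edgeR). The sums were 560.2 to 578 TPM in Tg-RKIP and 188 to 196 TPM in FVB hearts. Most of each sum was Acta2, also in the smooth muscle list, with means of 420 and 156 TPM. Of 10 macrophage markers 9 were higher and 1, Cd163, lower (-0.15), led by Gpnmb (2.70) and Trem2 (1.97), with sums of 770.2 to 781 TPM and 299 to 309 TPM. Of 8 endothelial and 8 smooth muscle or pericyte markers 5 were higher and 3 lower in each list. All 8 cardiomyocyte markers were lower with TMM, from Tnnt2 at -0.10 to Ryr2 at -2.07, and 2 were higher and 6 lower when scaled to library size only, with which Ddr2 and Cd163 also turned higher.

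Markers of skeletal tissues, in which Spp1, Sparc, Tnc, Thbs4 and Comp are abundant, were at or near 0 in FVB hearts for several defining genes and present in Tg-RKIP hearts. All 8 mineralised tissue markers were higher in Tg-RKIP than in FVB hearts, with a summed level of 65.9 to 68.1 TPM against 20.8 to 22.8 TPM. Nearly all of the FVB sum was Alpl, at 21.4 TPM ± 1.12 in FVB and 32.9 TPM ± 1.21 in Tg-RKIP hearts (log2 fold change 0.26). Reads of Ibsp (bone sialoprotein) numbered 720, 1010 and 756 for Tg-RKIP and 2, 0 and 0 for FVB, and Sp7 (osterix) had 57, 62 and 51 against 0 in each FVB library. Runx2, a RUNX factor of bone-forming cells, had a log2 fold change of 1.28 (adjusted p = 4.68e-07, edgeR) at 1.41 TPM ± 0.0427 and 0.444 TPM ± 0.0432. Of 8 tested cartilage markers 7 were higher (sums 50.2 to 52.5 against 5.77 to 6.19 TPM), and Col2a1 reads numbered 2593, 3291 and 2563 for Tg-RKIP and 0, 1 and 3 for FVB. Of 5 tested tendon markers, of which Thbs4 is one, 4 were higher, with Tnmd at 2.39 and Fmod at 2.26. In the libraries labelled Tg-GRK2 the sums were 21.3 to 23.0 TPM for the mineralised tissue list and 4.60 to 6.07 TPM for cartilage. Ibsp had 1 read in each of these libraries. Alpl had a mean of 21.5 TPM there. Airway epithelium markers summed to 87.6 to 94.1 TPM in Tg-RKIP hearts, 0.252 to 0.442 TPM in FVB hearts and 189 to 199 TPM under the Tg-GRK2 label. The median log2 fold change in Tg-RKIP against FVB hearts was 2.04 for the tendon markers, which is the value of the member Thbs4 itself. It was 2.53 for the cartilage, 4.16 for the mineralised tissue and 10.19 for the 4 tested airway markers, beside 2.20 for the members. With genes that had at most 3 reads over the FVB group set to 3 reads, 4 of the mineralised tissue and 3 of the airway markers, the medians of these lists became 3.56 and 7.02. The part of any of these tissues in the levels of the 10 genes was not tested.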

How the data were processed

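The authors deposited read counts per transcript, whole numbers without normalisation, and TPM values per transcript, which equal TPM recomputed from those counts and transcript lengths to within 5.5e-06. RNA came from whole hearts and was sequenced as single 50-base reads. The submitters' processing notes name GRCm39. Aligner, counter and the strand setting are not given in the sources used here. Counts and TPM were summed by gene name. Genes passing filterByExpr were fitted over all 9 libraries with a mean per group by edgeR 4.0.16 (TMM, quasi-likelihood, Benjamini-Hochberg, threshold 0.05) in R 4.3.3. TPM of members was compared by exact permutation tests in scipy 1.17.1. Alternatives used DESeq2 1.42.0, limma 3.58.1 on log2(TPM + 0.1) and log2(TPM + 1), other filters and scalings, a fold test at 1.5, 1 transcript per gene, a replicate block and each library left out. The fits were tested on simulated data. The 10 genes and the marker lists were chosen with earlier results of these data known. All members are described by name. From each list the 2 highest and 2 lowest genes could be named, and for each member the 2 nearest genes with a mean of at least 100 normalised counts. Acta2 was named in addition for its share of a sum. The nearest genes of Thbs4 are not reported here. Genes overlapping Ccn2, Thbs1, Spp1 and Tnc held at most 21 reads in any library.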

Additional observations from a re-analysis of the deposited data

How the results depend on the processing

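In both comparisons with Tg-RKIP hearts all 10 members were higher and 0 lower under every alternative run, except that Thbs2 lost its call in both in the test against a fold of 1.5. In the libraries labelled Tg-GRK2 against FVB, 2 members were higher and 3 lower, and the test against a fold of 1.5 left 0 higher and 1 lower, Spp1. Postn turned from 0.00 to -0.0440 on log2(TPM + 0.1) with and without a filter and to -0.0431 on log2(TPM + 1), and ranged from -0.0141 to 0.0314 when 1 library was left out, never past the threshold. Thbs2 passed there with several other filters and scalings, Ccn2 passed on log2(TPM + 0.1) (0.08, adjusted p = 0.025, limma), and Spp1 lost its call on its most abundant transcript (-0.92, adjusted p = 0.753, edgeR). That Spp1 transcript held 0, 0 and 56 reads in the FVB libraries and 0, 12 and 20 under the Tg-GRK2 label. The cause of these shifts was not tested. With a replicate block the counts were again 10 and 0, 2 and 3, and 10 and 0. Deviations of same-numbered libraries correlated by -0.05 to 0.05, which gave no sign that the numbers pair the hearts. A pairing could be missed here, because deviations within a group were close to counting noise. Over all genes the split of calls in Tg-RKIP against FVB was 5709 higher and 5751 lower with TMM, 9710 and 2649 scaled to library size only, and 8932 and 1964 on log2(TPM + 0.1). Among the members, low counts limit Spp1 and Tnc outside Tg-RKIP hearts.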
